A study of Mus musculus with 18 samples.

Results

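The circular RNAs of Nalcn, Unc79 and Unc80, the genes of the NALCN sodium leak channel complex, were followed in mouse brains of 3 genotypes. A circle was selected by its gene name in the deposited tables and by being listed with at least 1 read in any library. In all, 621 circles met this rule, 524 of the 208914 circles listed on Illumina and 229 of the 166212 listed on Oxford Nanopore (ONT), with 132 listed on both. The 3 genes were picked with earlier results of these data in view, so their levels are given as a description, and each adjusted p-value comes from a fit over all circles or all host genes.

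NALCN forms the pore of a cation channel that leaks sodium at rest and helps to set the resting membrane potential of neurons. UNC79 and UNC80 are very large accessory proteins without which the channel does not work normally, and FAM155A is a further subunit that covers the pore from outside. Mice that lack Nalcn or Unc79 die soon after birth with disturbed breathing. A circular RNA arises when the end of an exon is spliced back to the start of the same or an earlier exon, and the read across that back-splice junction is what is counted. The ADAR enzymes convert adenosine to inosine in double-stranded RNA, such as paired repeats in introns.

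Whole brains came from adult male mice of 3 to 4 months on the C57BL/6J background, with 3 biological replicates for each genotype. The group called Adar1-2KO carried Adar1 E861A/E861A, an allele whose product lacks editing activity, with Ifih-/-, Adar2-/- and Gria2 R/R. The group called Adar2KO was Adar2-/- with Gria2 R/R, and wild type mice carried none of these alleles. Adar1-2KO and Adar2KO therefore shared the Adar2 deletion and the Gria2 allele, and the effects of Adar1 and Ifih cannot be told apart between them. RNA was enriched for circles with RNase R, copied by rolling-circle reverse transcription and sequenced on both platforms, with 9 Illumina and 8 ONT libraries used here. ONT replicate 1 of wild type was not analysed here.

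The Illumina libraries held 1516772 to 4308264 back-splice reads and the ONT libraries 186594 to 673705 reads. Adar1-2KO replicate 3 stood apart: it had the most reads and the fewest Illumina circles, 21736 against 54244 to 76743 in the other libraries. It listed 51 Illumina circles of Nalcn, Unc79 and Unc80, while the other libraries listed 147 to 209. Markers of neurons were listed for 6 of 6 genes on both platforms and liver markers for 0 of 3. Summed neuron markers lay at 2569 to 2971 Illumina CPM in Adar1-2KO, 2370 to 2424 in Adar2KO and 2418 to 2672 in wild type. CPM are counts over the back-splice total of a library, scaled by TMM within each platform.

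The circle that carried most Nalcn reads on Illumina joined the end of exon 17 to the start of exon 16, at chr14:123607350-123609026 (GRCm39, minus strand). Its 2 exons lie wholly within the coding region and sum to 279 nt, and the letters are those of the GENCODE M21 transcript on GRCm38. It is printed whole as the Nalcn circle with most Illumina reads, and its ONT reads also differed between Adar1-2KO and Adar2KO. Capitals mark the first and last 10 bases, which meet at the back-splice junction.
Nalcn exons 16 to 17: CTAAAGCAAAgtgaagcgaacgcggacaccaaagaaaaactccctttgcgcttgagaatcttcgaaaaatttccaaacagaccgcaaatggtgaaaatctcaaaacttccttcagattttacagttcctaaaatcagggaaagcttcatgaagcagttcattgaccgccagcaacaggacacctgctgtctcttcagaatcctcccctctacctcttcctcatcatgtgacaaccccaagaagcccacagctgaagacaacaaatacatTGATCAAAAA

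Among circles wholly within the coding region, the junctions of those with most Illumina reads in each gene follow. They are written as a read would cross them, from the same transcripts. The Nalcn circles that rank between the printed pair by Illumina reads begin at exon 2, which holds the annotated start codon, and are not printed. The last 25 bases of the last exon are in lower case and the first 25 bases of the first exon in capitals. A pair of Nalcn junctions shares its lower-case side and a pair of Unc79 junctions its capital side, so the shared side alone does not tell these circles apart.
Nalcn exons 16 to 17, junction: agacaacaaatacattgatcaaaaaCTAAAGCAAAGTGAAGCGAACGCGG
Nalcn exons 15 to 17, junction: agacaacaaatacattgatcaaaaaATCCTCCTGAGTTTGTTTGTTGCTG
Unc79 exons 2 to 7, junction: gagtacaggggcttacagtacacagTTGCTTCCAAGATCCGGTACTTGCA
Unc79 exons 2 to 5, junction: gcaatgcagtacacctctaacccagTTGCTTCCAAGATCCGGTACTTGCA
Unc80 exons 3 to 7, junction: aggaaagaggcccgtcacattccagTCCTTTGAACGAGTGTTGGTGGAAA
Unc80 exons 14 to 18, junction: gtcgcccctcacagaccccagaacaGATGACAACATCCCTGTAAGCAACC

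The 3 genes differed in how many circles shared their reads. Unc79 had 166 Illumina circles with 64949 back-splice reads, and its leading circle held 72.1% of them. Nalcn had 123 circles with 44457 reads, 51.9% of them in the leading circle. Unc80 had the most circles, 235, and the fewest reads, 13891, with 22.7% in its leading circle.

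Most of the circles were rare. Of the 524 Illumina circles, 271 were listed in a single library, 62 had a single read in all, and 23 were listed in all 9 libraries. ONT tables listed no circle under 2 reads. By position, 484 of the Illumina circles were annotated as exonic, 34 as intronic and 6 as antisense. The count of 524 includes 1 circle whose label names Rpe beside Unc80. No step that marks strand is named, so the antisense circles cannot be assigned to a strand with certainty.

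Exon ends could be placed for 335 of the 524 circles, which held 96.2% of the reads. Exon numbers are those of GENCODE M21 transcripts with 44 exons for Nalcn, 52 for Unc79 and 65 for Unc80. Placed circles spanned a median of 7 exons in Nalcn, 7 in Unc79 and 8 in Unc80, and single-exon circles were few, with 2, 2 and 1 of them. Weighted by reads, the mean was 3.4 exons for Nalcn, 5.4 for Unc79 and 5.2 for Unc80. The longest genomic span was 198.4 kb, in Nalcn.

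Back-splicing used few exon ends in Nalcn and Unc79. In Unc79, 87.9% of the reads began at exon 2, and 77.7% ended at exon 7. In Nalcn, 52.6% began at exon 16 and 34.2% at exon 2, while 55.3% ended at exon 17 and 25.6% at exon 6. Nalcn reads thus fell into an early block and a middle block. Unc80 reads were spread over more starts, with 24.4% at exon 3, 21.1% at exon 14, 14.2% at exon 5 and 11.5% at exon 24.

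**Figure D1:**
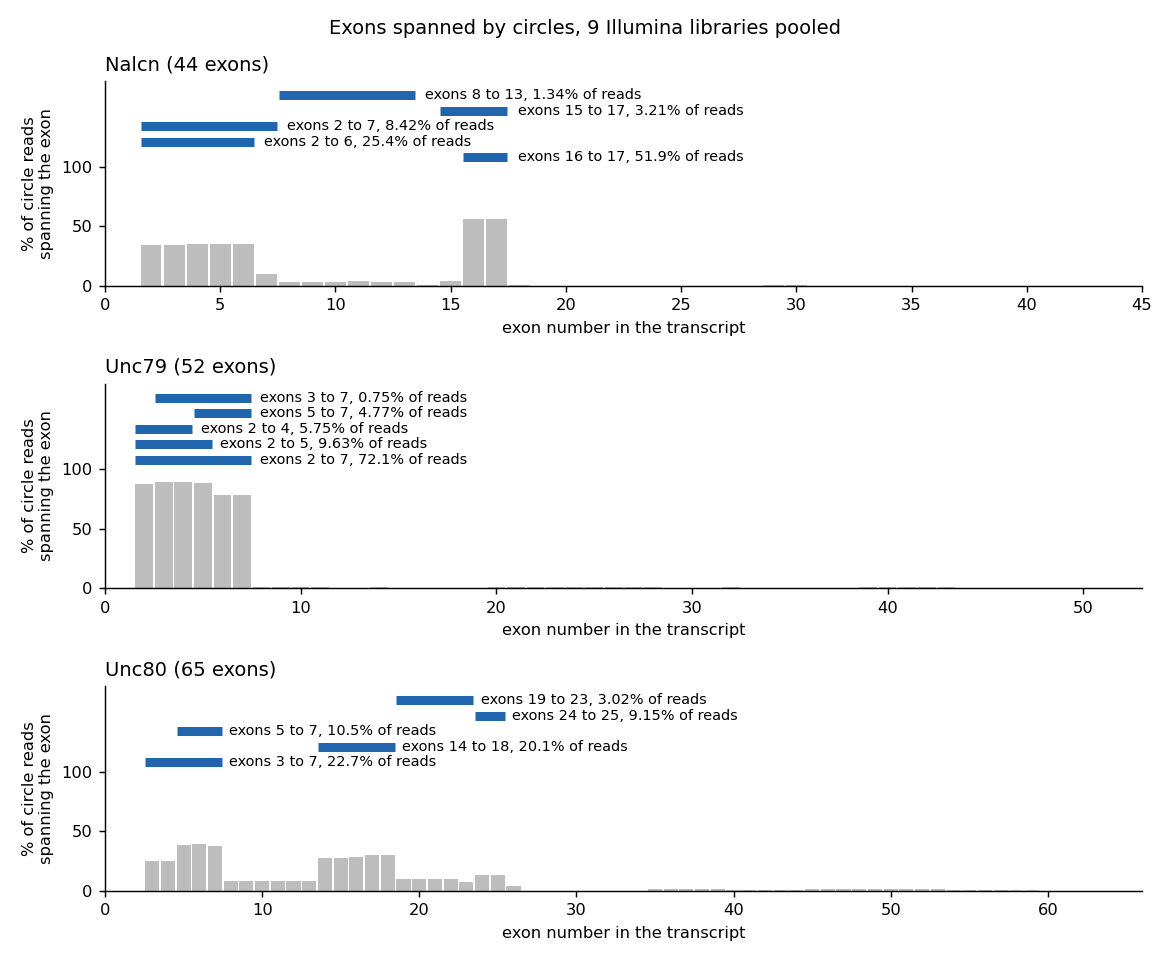
Percent of each gene's Illumina back-splice reads (vertical axis) in placed circles that contain a given exon (horizontal axis, exon number in the GENCODE M21 transcript). Nalcn has an early and a middle block, Unc79 a single block that begins at exon 2, and Unc80 several.

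All 3 genes ranked high among brain genes that give circles. By mean Illumina CPM, Unc79 was at rank 40, Nalcn at rank 66 and Unc80 at rank 339 of 8737 host genes tested. On ONT the ranks were 33, 93 and 306 of 5352.

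Summed over its circles, Nalcn had 1826, 1615 and 2133 Illumina CPM in Adar1-2KO brains, 1835, 1498 and 2220 in Adar2KO and 1503, 1839 and 1694 in wild type. Unc79 had 2791, 2240 and 3210 CPM in Adar1-2KO, 2725, 2513 and 2664 in Adar2KO and 2442, 2484 and 2502 in wild type. Unc80 had 563, 598 and 477 CPM in Adar1-2KO, 691, 614 and 559 in Adar2KO and 547, 519 and 679 in wild type. The genotypes overlapped for Nalcn and Unc80, and for Unc79 the 3 Adar2KO brains lay above the 3 wild type brains while Adar1-2KO spanned both. These are bulk samples, in which fewer cells of a type and less RNA per cell cannot be told apart.

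No host gene of the 3 passed the threshold on Illumina (edgeR's quasi-likelihood test, adjusted p under 0.05). The log2 fold changes of Adar1-2KO over wild type were 0.15 ± 0.18 (SE) for Nalcn, 0.15 ± 0.16 for Unc79 and -0.09 ± 0.19 for Unc80. For Adar2KO over wild type they were 0.14 ± 0.18, 0.09 ± 0.16 and 0.10 ± 0.19 in the same order of genes. With library sizes taken from mapped reads, Adar1-2KO over wild type was 0.56 ± 0.29 for Nalcn and 0.55 ± 0.28 for Unc79 (edgeR, adjusted p = 0.51 each), and the median of all host genes moved to 0.31 under that scaling, against -0.07 in the TMM fit. Without Adar1-2KO replicate 3, the TMM values of these genes were 0.037 and 0.024, and without Adar1-2KO replicate 2 they were 0.24 and 0.28. Over all host genes, 0.0916% were called in Adar1-2KO over wild type, 0.0687% in Adar2KO over wild type and 0.0458% in Adar1-2KO over Adar2KO. At an unadjusted p under 0.05 the count was also 0 of 3 in each comparison, with edgeR and with DESeq2. By the read names, the 3 wild type libraries, Adar1-2KO replicate 2 and most reads of Adar2KO replicate 3 came from 1 flow cell. Within these 5 libraries, Adar1-2KO over wild type was -0.044 ± 0.19 for Nalcn, -0.13 ± 0.17 for Unc79 and 0.053 ± 0.23 for Unc80, and Adar2KO over wild type 0.41 ± 0.19, 0.11 ± 0.16 and -0.054 ± 0.24, none of them called.

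On ONT, Nalcn had 1905, 1667 and 1572 CPM in Adar1-2KO, 1142, 1388 and 1540 in Adar2KO and 1561 and 1483 in wild type. The Adar1-2KO values lay above all others, but the log2 fold change over Adar2KO, 0.34 ± 0.17, had an adjusted p of 0.441 by edgeR. Unc79 had 3299, 3219 and 3826 CPM in Adar1-2KO, 2925, 3324 and 3617 in Adar2KO and 3850 and 3445 in wild type. Unc80 had 637, 707 and 483 CPM in Adar1-2KO, 621, 592 and 581 in Adar2KO and 567 and 930 in wild type. The genotypes overlapped for Unc79 and Unc80. None of the 3 was called by edgeR, where 0.0374% of host genes passed in Adar1-2KO over wild type, 0.0747% in Adar2KO over wild type and 0.99% in Adar1-2KO over Adar2KO. The count at an unadjusted p under 0.05 was 0 with edgeR in each comparison, and with DESeq2 it was 1, for Nalcn in Adar1-2KO over Adar2KO, and 0 in the others.

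**Figure D2:**
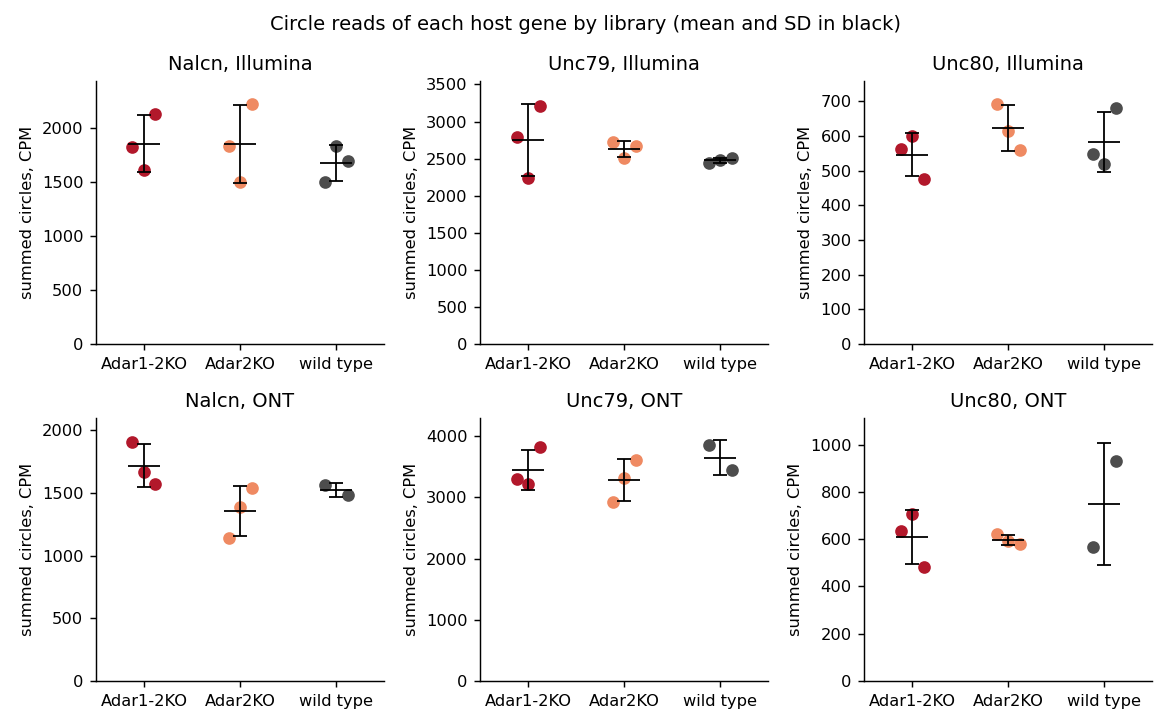
Summed circle level of Nalcn, Unc79 and Unc80 (CPM, vertical axes from 0) in each library on Illumina and ONT, by genotype, with mean and SD in black. Unc79 is highest and Unc80 lowest on both platforms, and the genotypes largely overlap.

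The Nalcn circle of exons 16 to 17 was the only circle of the 3 genes that passed the threshold in the edgeR fits with the filter on low counts given here, at least 5 reads in at least 3 libraries. It had 401, 215 and 447 ONT reads in Adar1-2KO, 46, 57 and 57 in Adar2KO and 76 and 67 in wild type. In CPM these were 1296, 983 and 886 in Adar1-2KO, 162, 182 and 175 in Adar2KO and 470 and 441 in wild type. The genotypes did not overlap, with Adar1-2KO highest and Adar2KO lowest. The circle rose in Adar1-2KO over Adar2KO by 2.60 ± 0.23 on the log2 scale (edgeR, adjusted p = 0.00166), at rank 2 by p among 10367 ONT circles tested.

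Against wild type the same circle differed by 1.21 ± 0.26 in Adar1-2KO (edgeR, unadjusted p = 0.000683, adjusted p = 0.315) and by -1.39 ± 0.25 in Adar2KO (unadjusted p = 0.000188, adjusted p = 0.478). With 2 wild type libraries, neither passed with edgeR. DESeq2 called both, with adjusted p-values of 0.00995 and 0.000393. With edgeR, 49 of 10367 ONT circles (0.473%) were called in Adar1-2KO over Adar2KO, 0% in Adar1-2KO over wild type and 0.00965% in Adar2KO over wild type. The share of all ONT circles that DESeq2 called was not computed, so its calls have no background here.

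The Illumina reads of this circle did not show the ONT pattern. They numbered 3396, 2108 and 4489 in Adar1-2KO, 2375, 1423 and 4110 in Adar2KO and 1976, 1943 and 1254 in wild type. In CPM they were 1072, 985 and 1159 in Adar1-2KO, 978, 656 and 1461 in Adar2KO and 668, 918 and 837 in wild type. Adar1-2KO lay above wild type in every library, and Adar2KO overlapped both. The log2 fold change of Adar1-2KO over Adar2KO was 0.06 ± 0.25 (edgeR, adjusted p = 1), that of Adar1-2KO over wild type 0.41 ± 0.25 (adjusted p = 0.897) and that of Adar2KO over wild type 0.35 ± 0.25 (adjusted p = 1). The value for Adar2KO over wild type was 0.015 without Adar2KO replicate 3 and 0.59 without Adar2KO replicate 2. Within the libraries of the shared flow cell, with 1 library in each mutant group, the circle was at -0.55 ± 0.30 in Adar1-2KO over Adar2KO, 0.31 ± 0.24 in Adar1-2KO over wild type and 0.86 ± 0.24 in Adar2KO over wild type (adjusted p from 0.498 to 0.794). CIRI2, a second caller on the Illumina reads, gave 2210 and 5563 reads in Adar1-2KO replicates 2 and 3, 2458, 1488 and 4268 in Adar2KO and 2061, 2047 and 1311 in wild type. The difference between the platforms was not tested.

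**Figure D3:**
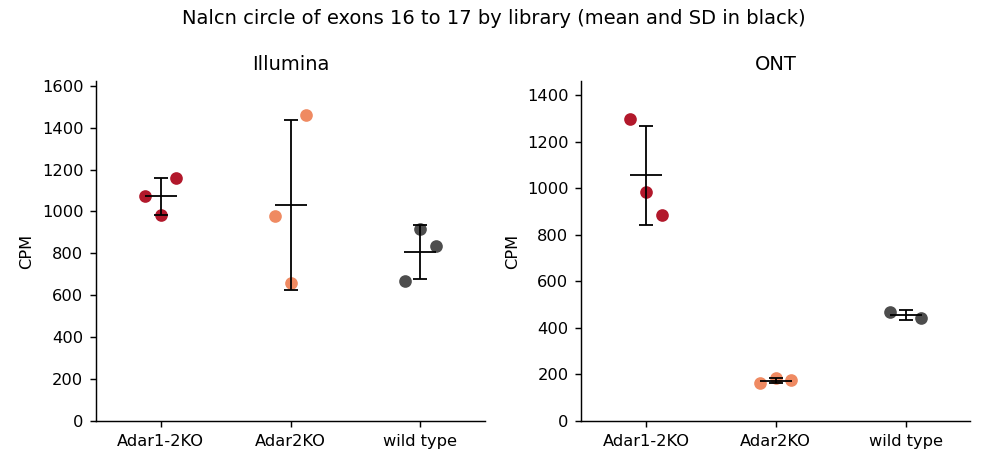
CPM (vertical axes from 0) of the Nalcn circle of exons 16 to 17 in each library on Illumina (left) and ONT (right), by genotype, with mean and SD in black. On ONT the 3 Adar1-2KO libraries lie at 886 to 1296 and the 3 Adar2KO libraries at 162 to 182, while on Illumina these genotypes overlap.

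As a share of all Nalcn reads on ONT, the circle made up 52.8%, 49.5% and 47.9% in Adar1-2KO, 12.3%, 10.3% and 9.7% in Adar2KO and 27.0% and 27.1% in wild type. On Illumina the shares were 54.7%, 58.8% and 52.3% in Adar1-2KO, 49.4%, 42.1% and 60.9% in Adar2KO and 42.1%, 49.7% and 49.1% in wild type. The ONT share in Adar1-2KO was near the Illumina share, and the ONT shares in Adar2KO and wild type were below theirs. The other Nalcn circles together had 853.6 ± 41.5 ONT CPM in Adar1-2KO (SD, n = 3), 1213 ± 197 in Adar2KO (n = 3) and 1110 ± 41.4 in wild type (n = 2). These CPM are on the scale of the host gene fit, not of the circle fit. On ONT the other circles were lowest in Adar1-2KO, the genotype in which the exon 16 to 17 circle was highest. On Illumina they had 826.9, 666.0 and 1016.3 CPM in Adar1-2KO, 888 ± 34.8 in Adar2KO and 886 ± 33.9 in wild type (SD, n = 3). The Illumina libraries of Adar1-2KO lay on both sides of the other genotypes.

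**Figure D4:**
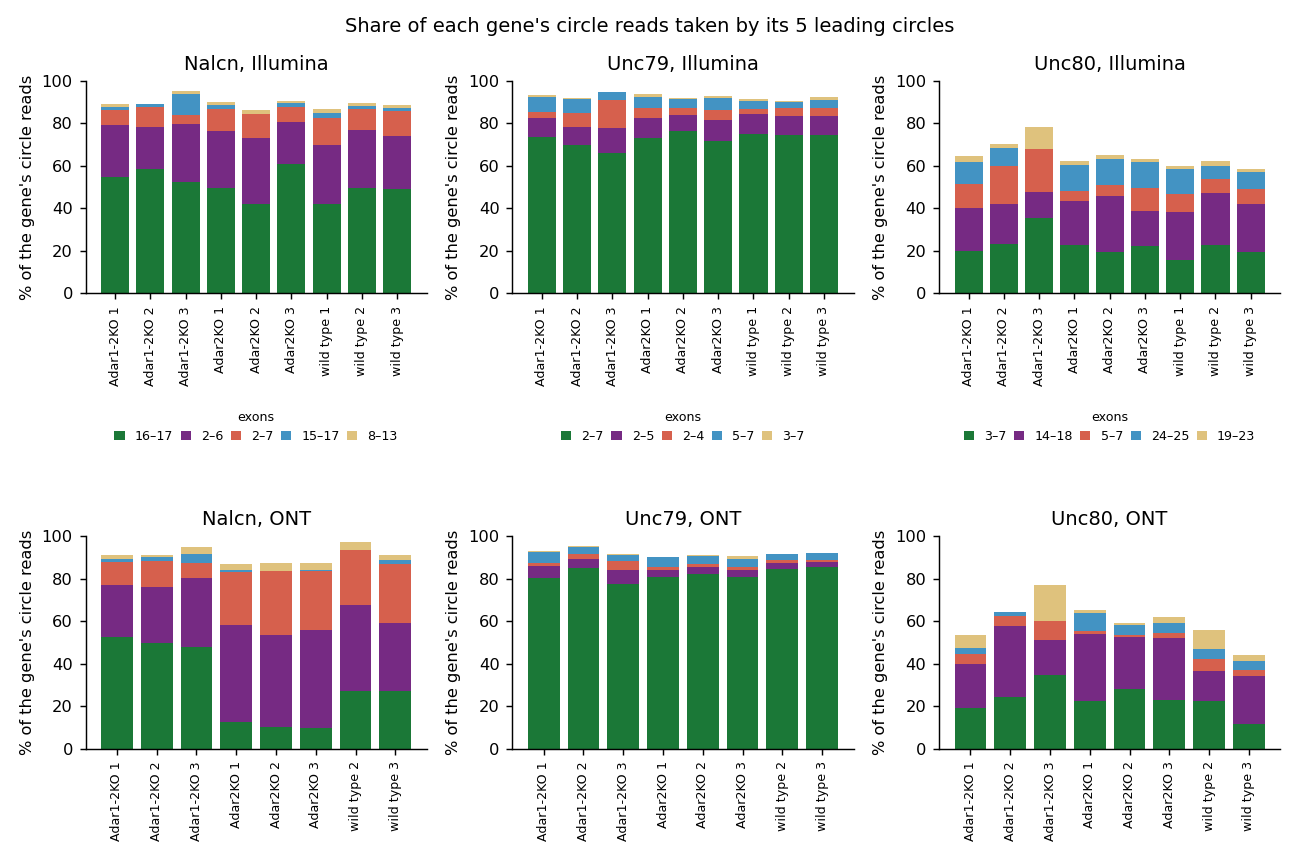
Stacked bars give the share of a gene's reads (percent, vertical axis) held by each of its 5 leading circles in each library (horizontal axis), with Illumina above and ONT beneath. The Nalcn circle of exons 16 to 17 takes 47.9% to 52.8% of ONT reads in Adar1-2KO and 9.7% to 12.3% in Adar2KO.

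ONT libraries also differed in the lengths of the circles they held. Circles of 200 to 350 nt took 9.69%, 8.34% and 9.26% of ONT reads in Adar1-2KO, 8.96%, 6.49% and 7.32% in Adar2KO and 5.88% and 6.50% in wild type. Of the 49 ONT circles called in Adar1-2KO over Adar2KO, 36 were higher and 13 lower, and 16 (32.7%) were of 200 to 350 nt, against 10.8% of all circles tested. Their median length was 389 nt, against 696 nt for the circles tested. The part of circle length in the Nalcn result was not tested by these shares. In a fit on circles of 200 to 350 nt alone, which was added after the data were seen, the circle was higher in Adar1-2KO than in Adar2KO by 2.42 ± 0.23 (edgeR, adjusted p = 0.000691). The median log2 fold change of circles in that length range was -0.07 in the fit over all lengths, against -0.21 for all circles tested.

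On ONT the summed neuron markers ran in the same order of genotypes as the Nalcn circle, without overlap, at 3021 to 3728 CPM in Adar1-2KO, 2642 to 2744 in Adar2KO and 2899 to 2995 in wild type. The 6 markers did not move together. In Adar1-2KO over Adar2KO, Syt1 (1.0, edgeR, adjusted p = 0.0265) was the only one called, Snap25 was at 1.21, Map2 at 0.52 and Rbfox3 at 0.44, while Nrxn3 was at -0.16 and Grin2b at -0.45. The part of neuron content in the Nalcn result was not tested.

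A circle of Unc79 happens to have the same length of 279 nt, from exons 5 to 7. It had 226, 123 and 115 ONT CPM in Adar1-2KO, 155, 144 and 169 in Adar2KO and 111 and 118 in wild type. Adar1-2KO overlapped both other genotypes, and Adar2KO lay above wild type. Its log2 fold change of Adar1-2KO over Adar2KO was -0.01 ± 0.35 on ONT. The part of circle length in the Nalcn result was not tested by this single circle. Without Adar1-2KO replicate 3, the library that stood apart, the Nalcn circle kept its call, and over every single library left out its log2 fold change stayed between 2.46 and 2.70.

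The second Nalcn circle by Illumina reads, and the first by ONT reads, joined exon 6 to exon 2 (chr14:123830094-123837401, 683 nt). Exon 2 holds the annotated start codon, so this circle includes the start of the NALCN protein. It had 481, 332 and 609 Illumina CPM in Adar1-2KO, 531, 485 and 480 in Adar2KO and 440, 506 and 424 in wild type. On ONT it had 595, 526 and 605 CPM in Adar1-2KO, 607, 765 and 826 in Adar2KO and 705 and 520 in wild type. On ONT the 3 Adar1-2KO libraries lay below the 3 Adar2KO libraries, and the log2 fold change was -0.35 ± 0.22 (edgeR, adjusted p = 0.678).

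Another Nalcn circle extended this one by an exon, from exon 2 to 7 (838 nt). On ONT it had 272, 247 and 127 CPM in Adar1-2KO, 328, 544 and 504 in Adar2KO and 451 and 454 in wild type. Adar1-2KO was below every other library, with a log2 fold change of -1.1 ± 0.32 over Adar2KO (edgeR, unadjusted p = 0.00624, adjusted p = 0.249). On Illumina it had 143, 152 and 93.7 CPM in Adar1-2KO, 206, 174 and 159 in Adar2KO and 203, 180 and 201 in wild type. The Illumina libraries had the same order, with -0.48 ± 0.32 over Adar2KO and -0.59 ± 0.32 over wild type, and neither passed (adjusted p = 1 and 0.829).

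Exons 15 to 17 of Nalcn (354 nt) form a circle that shares its last exon with the leading one. It had 86, 60 and 828 Illumina reads in Adar1-2KO, 99, 0 and 145 in Adar2KO and 111, 56 and 40 in wild type. On ONT it had 10, 8 and 38 reads in Adar1-2KO, 5, 0 and 3 in Adar2KO and 0 and 4 in wild type. Adar1-2KO replicate 3 was highest on both platforms, with 828 of 1425 Illumina reads and 38 of 68 ONT reads. The fifth Nalcn circle, of exons 8 to 13 (827 nt), had 77, 0 and 146 Illumina reads in Adar1-2KO, 58, 71 and 66 in Adar2KO and 96, 46 and 35 in wild type.

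The leading Unc79 circle joined exon 7 to exon 2 (chr12:102957609-102988135, plus strand, 717 nt) and was the most abundant circle of the 3 genes. It had 6995, 3468 and 8536 Illumina reads in Adar1-2KO, 5233, 4336 and 5824 in Adar2KO and 5709, 3931 and 2814 in wild type. Scaled, these were 2208, 1621 and 2204 CPM in Adar1-2KO, 2156, 2000 and 2070 in Adar2KO and 1929, 1858 and 1879 in wild type. Adar2KO lay above wild type by 0.14 ± 0.14, and no genotype difference passed (edgeR, adjusted p = 1 in the 3 comparisons). On ONT the circle had 3414, 3256 and 3489 CPM in Adar1-2KO, 2746, 3507 and 3410 in Adar2KO and 3623 and 3237 in wild type, with log2 fold changes between -0.09 and 0.07.

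Other Unc79 circles started at the same exon 2 and ended earlier. The circle of exons 2 to 5 (531 nt) had 249, 169 and 289.5 ONT CPM in Adar1-2KO, 102, 128 and 154 in Adar2KO and 130 and 72.4 in wild type. On ONT, Adar1-2KO lay above all other libraries, with 1.22 ± 0.42 over wild type (edgeR, unadjusted p = 0.0149, adjusted p = 0.534) and 0.88 ± 0.35 over Adar2KO (unadjusted p = 0.029, adjusted p = 0.393). On Illumina it had 272, 205 and 397 CPM in Adar1-2KO, 266, 195 and 284 in Adar2KO and 247, 226 and 227 in wild type, and the genotypes overlapped. The circle of exons 2 to 4 (438 nt) had 263, 329 and 1684 Illumina reads in Adar1-2KO, 351, 180 and 381 in Adar2KO and 194, 210 and 143 in wild type. Its largest count came from Adar1-2KO replicate 3, and its log2 fold change over wild type was 1.37 ± 0.52 (edgeR, unadjusted p = 0.0191, adjusted p = 0.718).

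The Unc79 circle of exons 5 to 7 had 207, 152 and 121 Illumina CPM in Adar1-2KO, 158, 112 and 159 in Adar2KO and 95.6, 70.9 and 96.1 in wild type. Every mutant library lay above every wild type library. The log2 fold changes were 0.87 ± 0.37 in Adar1-2KO (edgeR, unadjusted p = 0.0339, adjusted p = 0.72) and 0.71 ± 0.37 in Adar2KO (unadjusted p = 0.0765, adjusted p = 1). Exons 3 to 7 (596 nt), the fifth circle, had 8 to 28.7 Illumina CPM in Adar1-2KO, 20.8 to 30.5 in Adar2KO and 10.4 to 36.0 in wild type.

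Unc80 had 2 leading circles of like size. The circle of exons 3 to 7 (chr1:66511135-66530290, plus strand, 800 nt) had 121, 143 and 175 Illumina CPM in Adar1-2KO, 170, 125 and 134 in Adar2KO and 91.6, 119 and 133 in wild type. The circle of exons 14 to 18 (chr1:66560614-66570012, 710 nt) had 121, 119 and 62.2 CPM in Adar1-2KO, 155, 169 and 100.2 in Adar2KO and 131, 128 and 154 in wild type. Their genotypes overlapped, apart from exons 14 to 18, where the 3 Adar1-2KO libraries lay below the 3 wild type libraries (-0.45 ± 0.39, edgeR, adjusted p = 1). On ONT each of these circles had 397 reads in all.

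The Unc80 circle of exons 5 to 7 (chr1:66522400-66530290, 341 nt) lies within the 3 to 7 circle and shares its end. It had 217, 238 and 382 Illumina reads in Adar1-2KO, 81, 72 and 183 in Adar2KO and 139, 73 and 72 in wild type. In CPM, the 3 Adar1-2KO libraries lay at 68.5, 111 and 98.6, above Adar2KO at 33.4, 33.2 and 65.0 and wild type at 47.0, 34.5 and 48.1. On ONT it had 12, 9 and 26 reads in Adar1-2KO, 3, 2 and 5 in Adar2KO and 6 and 4 in wild type. Adar1-2KO was highest in CPM on both platforms, at 1.1 ± 0.51 over wild type on Illumina (edgeR, unadjusted p = 0.0493, adjusted p = 0.739) and 1.98 ± 0.80 over Adar2KO on ONT (unadjusted p = 0.031, adjusted p = 0.402).

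Some Unc80 circles were at 0 in single libraries that were otherwise deep. The circle of exons 24 to 25 (chr1:66629354-66632957, 270 nt) had 201, 112 and 0 Illumina reads in Adar1-2KO, 225, 171 and 210 in Adar2KO and 205, 67 and 80 in wild type. On ONT it had 7, 3 and 0 reads in Adar1-2KO, 17, 11 and 11 in Adar2KO and 5 and 7 in wild type. Adar1-2KO replicate 3 lacked it on both platforms. The circle of exons 19 to 23 (799 nt) behaved the other way, with 51, 26 and 201 Illumina reads in Adar1-2KO, 33, 23 and 23 in Adar2KO and 25, 22 and 15 in wild type.

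Taking all circles of the 3 genes, 104 passed that filter on Illumina, of 38297 circles in the whole table, with 32 of Nalcn, 38 of Unc79 and 34 of Unc80. None was called by edgeR on Illumina. The whole table had 0.0627% called in Adar1-2KO over wild type, 0.0209% in Adar2KO over wild type and 0.0209% in Adar1-2KO over Adar2KO. At an unadjusted p under 0.05 there were 9, 1 and 7 of the 104 with edgeR, and 10, 1 and 9 with DESeq2, which also called 0. Over all circles tested, edgeR had 6.74%, 1.82% and 6.38% under that p, so these counts were near the background.

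The median log2 fold change of the 104 was -0.54 in Adar1-2KO over wild type, where all circles tested had -0.26. It was 0.02 in Adar2KO over wild type, where all circles had 0.04. Over Adar2KO, Adar1-2KO had a median of -0.60 for the 104 and -0.31 for all circles. Adar1-2KO replicate 3 had few circles listed, and its part in these medians was not tested. On ONT, 26 circles were tested, with 4, 1 and 5 at an unadjusted p under 0.05 in the same order of comparisons, by edgeR and by DESeq2. Over all ONT circles tested, edgeR had 7.32%, 4.21% and 10.4% under that p. With edgeR these were Nalcn exons 16 to 17, 2 to 7 and 2 to 13, Unc79 exons 2 to 5 and, over Adar2KO, Unc80 exons 5 to 7. Nalcn exons 2 to 13 reached the filter only through the Adar2KO libraries, where it was high, so its p-value is no support for a difference.

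The lowest p-values on Illumina belonged to rare Unc80 circles. In Adar1-2KO over wild type and over Adar2KO it was a circle at chr1:66542689-66560745, with 0, 0 and 0 reads in Adar1-2KO, 5, 19 and 4 in Adar2KO and 8, 2 and 17 in wild type (edgeR, unadjusted p = 0.00692 and 0.0084). Its adjusted p-values were 0.718 and 0.764. With no reads in Adar1-2KO, it passed the filter through the other genotypes alone. In Adar2KO over wild type it was chr1:66522400-66560745, with 0 reads in Adar2KO and 0, 22 and 7 in wild type (unadjusted p = 0.0238, adjusted p = 1). On ONT, the lowest p in every comparison was that of the Nalcn circle of exons 16 to 17.

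Of the 104 circles tested on Illumina, 26 were also tested on ONT. Across these circles their mean CPM over the genotypes had a Spearman correlation of 0.769 and a Pearson correlation of 0.856 on the log2 scale, as a description. Circles of 1 gene share their libraries and are not independent. A circle of Nalcn exons 2 to 13 had 0, 0 and 0 ONT reads in Adar1-2KO, 5, 10 and 5 in Adar2KO and 2 and 3 in wild type. Its fitted fold change depends on the prior count and is no measure of size.

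**Figure D5:**
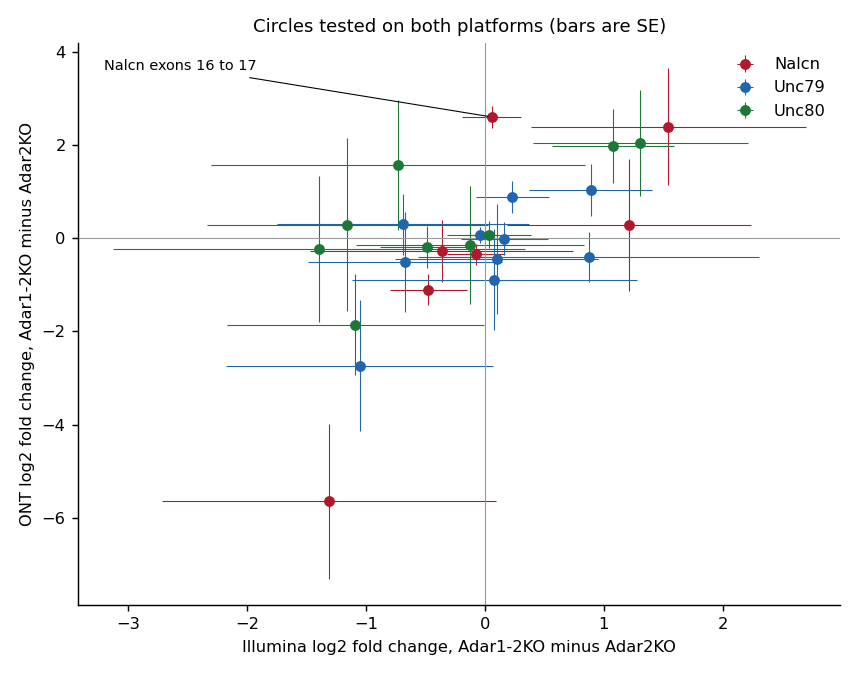
Log2 fold change of Adar1-2KO over Adar2KO on Illumina (horizontal axis) and ONT (vertical axis) for the 26 circles tested on both, with SE bars, coloured by gene. The Nalcn circle of exons 16 to 17 stands at 0.06 on Illumina and 2.60 on ONT, and the lowest point, Nalcn exons 2 to 13, had no ONT reads in Adar1-2KO.

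The deposited tables also give forward-splice reads, which cross the same exon ends to neighbouring exons, and from them a circular share. In each Illumina library, up to 59.7% of a gene's listed circles had 0 forward-splice reads. For the Nalcn circle of exons 16 to 17 the forward-splice reads numbered 0, 114 and 1979 in Adar1-2KO, 0, 104 and 17 in Adar2KO and 0, 317 and 136 in wild type. The leading Unc79 circle was listed at 0 in all 9 libraries. A listed 0 can be a failed estimate, and replicates of a genotype ran from 0 to 1979 for the Nalcn circle in Adar1-2KO.

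Of 6353 circles whose back-splice and forward-splice reads summed to at least 20 in every library, 13 were of these genes. Of the 13, 11 had 0 forward-splice reads in some library, and 8 of those had over 100 in another. None was called in its circular share by limma, where 0.0944% of circles passed in Adar1-2KO over wild type, 0.0787% in Adar2KO over wild type and 0.189% in Adar1-2KO over Adar2KO. At an unadjusted p under 0.05 there were 0, 0 and 2 of the 13, against 4.79%, 2.93% and 5.13% of all 6353 circles. These 2, named after their values were seen, were Nalcn exons 15 to 18 (-3.99 ± 1.39 on the log2 scale) and Unc79 exons 2 to 5 (-9.22 ± 3.79) in Adar1-2KO over Adar2KO (limma, adjusted p = 0.811 each). DESeq2 is a count test and was not applied to these ratios. Without Adar1-2KO replicate 3, the Unc80 circle of exons 24 to 25 entered and was called in Adar2KO against both other groups. Its log2 share differed by -9.87 ± 0.66 in Adar2KO over wild type and by 10.4 ± 0.74 in Adar1-2KO over Adar2KO. It had forward-splice reads of 0 and 0 in Adar1-2KO replicates 1 and 2, 839, 1083 and 825 in Adar2KO and 0, 0 and 0 in wild type. These calls rest on listed zeros, which can be failed estimates, and the share of all circles called in that fit was not computed.

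Fam155a, the gene of the FAM155A subunit, gave few circles: 8, 0 and 103 Illumina reads in Adar1-2KO, 12, 2 and 0 in Adar2KO and 0, 13 and 0 in wild type. On ONT it had 22, 8 and 21 reads in Adar1-2KO, 2, 8 and 2 in Adar2KO and 2 and 5 in wild type. The Adar1-2KO libraries had the most ONT CPM, at 1.90 ± 0.94 over Adar2KO (edgeR, adjusted p = 0.407). The second such subunit gene, Fam155b, was not listed.

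Of 9 genes of receptors and kinases that act on the channel, 6 were tested on Illumina and 4 on ONT, and none was called by edgeR. The most read was Gabbr2, a subunit of the GABA-B receptor, at 194 ± 32.3 Illumina CPM in Adar1-2KO, 181 ± 17.7 in Adar2KO and 200.1 ± 14.1 in wild type (SD, n = 3 each). Gabbr1, the other subunit of that receptor, had 100.4 ± 81.0 in Adar1-2KO, 117 ± 19.2 in Adar2KO and 123 ± 37.4 in wild type. Of 14 related sodium and calcium channel genes with 4 repeats, 13 were tested on Illumina and 11 on ONT, with none called. Cacna1b, the N-type calcium channel, was the most read, at 1317 ± 368 Illumina CPM in Adar1-2KO, 1455 ± 474 in Adar2KO and 1138 ± 260 in wild type. Cacna1a, the P/Q-type calcium channel, had 1099 ± 328 in Adar1-2KO, 1330.0 ± 122 in Adar2KO and 1326 ± 148 in wild type. The genotypes overlapped for all 4 of these genes on Illumina.

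Of 15 genes of other channels of the resting membrane, 11 were tested on Illumina with none called and 9 on ONT with 2 lower in Adar1-2KO than in Adar2KO and 0 higher, where 0.99% of all ONT host genes were called in either direction. Kcnj6, an inward rectifier gated by G proteins, had 1870, 1917 and 1065 ONT CPM in Adar1-2KO, 2767, 4168 and 3509 in Adar2KO and 2728 and 2623 in wild type. It fell by 1.11 on the log2 scale in Adar1-2KO against Adar2KO (SE 0.23, edgeR, adjusted p = 0.0365). On Illumina the 2 genotypes overlapped for Kcnj6, at -0.18 (adjusted p = 0.984). Kcnk10, a potassium leak channel of the same list, had 1557 ± 303 Illumina CPM in Adar1-2KO, 1687 ± 122 in Adar2KO and 1527 ± 170 in wild type (SD, n = 3 each).

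The host genes whose Illumina levels ran most like each of these genes were found by Pearson correlation of log2 CPM over the 9 libraries. For Nalcn these were Mbtd1 (0.943), Acap2 (0.928) and Rab7 (0.913). For Unc79 they were Vstm2a (0.960), LOC118568674 (0.946) and Klf12 (0.934), and for Unc80 Snap23 (0.961) and Pepd (0.951). Among the members, Nalcn and Unc79 had 0.690, Nalcn and Unc80 -0.40 and Unc79 and Unc80 -0.41. All libraries of a genotype share it, and several of these genes had few reads, so the values are a description.

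In the authors' deposited table of Adar1-2KO against wild type, 411 of 160909 circles belonged to these genes and 0 had an adjusted p-value under 0.05, with 5 at an unadjusted p under 0.05. Of the whole of the authors' deposited table, 54 circles had an adjusted p-value under 0.05. There the authors' deposited table gives the Nalcn circle of exons 16 to 17 a log2 fold change of 0.36 with an adjusted p of 0.911. The authors' deposited table of Adar2KO against wild type holds 772 circles, and 1 was of these genes, an Unc80 circle of exons 3 to 13 with a log2 fold change of 1.95 and an adjusted p of 1.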

How the data were processed

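Circles were measured in 9 Illumina and 8 ONT libraries. Per the file headers, the authors quantified Illumina circles with CIRIquant 1.1.2 as counts of back-splice and forward-splice reads. Per the submitters' processing notes, bcl2fastq, BWA 0.7.17, DESeq2 2.11.40.8 and GRCm39 (mm39) were used. A junction ratio, deposited as a fraction, and a CPM value per mapped reads stand beside them. The authors' comparison tables hold a normalized signal, a log2 fold change, a Wald score and p-values. Headers of the Adar1-2KO tables were offset by 1 column from their contents, which the contents themselves showed, and were realigned. The deposited ONT and CIRI2 counts start at 2 reads, and the ONT caller is not given in the sources used here.

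Counts per circle and per host gene were fitted with edgeR 4.0.16 (TMM, quasi-likelihood, 2-sided, R 4.3.3) on all libraries of a platform, keeping features that reached 5 reads in 3 or more libraries, with Benjamini-Hochberg adjustment at 0.05 over the whole table. Alternatives used DESeq2 1.42.0. The circular share was fitted with limma 3.58.1 on the log2 ratio of 2 times the back-splice count to the forward-splice count (pseudocount 0.5). Scripts ran in Python 3.11.15 with pandas 2.3.3 and matplotlib 3.10.9. The edgeR and limma functions were tested on simulated Illumina host gene counts. The circle, ONT, DESeq2 and circular share fits were not tested on simulated data. Exons were placed by matching the exon and intron lengths of ONT isoforms to GENCODE M21 transcripts on GRCm38, since no GRCm39 sequence was used; coordinates are those of the files.

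Named were the 3 host genes, the 5 circles per gene with most Illumina reads, the circle with most ONT reads, every circle past the threshold, the circle of lowest p where none passed, list genes past the threshold with the 2 most read of each list, and the 3 most alike host genes; some of the genes this rule names are not reported here. The members and lists were chosen with earlier results of these data known. Labels say replicates are biological, and p-values measure the spread between them. ONT and Illumina libraries are not independent sets of mice as far as the labels tell.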

Additional observations from a re-analysis of the deposited data

How the results depend on the processing

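The ONT call of the Nalcn circle of exons 16 to 17 in Adar1-2KO over Adar2KO held under all alternatives, at 2.42 to 2.68 (adjusted p from 1.54e-20 to 0.00421), and with each library left out at 2.46 to 2.70 (adjusted p from 0.000365 to 0.0178). DESeq2 brought that circle past the threshold against wild type too, at 1.19 in Adar1-2KO and -1.44 in Adar2KO. It was the 1 call among circles of these genes in each, and the share of all ONT circles called by DESeq2 was not computed. With no filter, 1 Illumina circle, Unc79 exons 20 to 26, was called in Adar1-2KO over Adar2KO, at 8.79 ± 2.22 (edgeR, adjusted p = 0.0429). The share of all circles called in that fit was not computed, so this call has no background here. Small differences changed sign. In the libraries of the shared flow cell, where each mutant has 1 library assumed to vary like the others, Adar1-2KO over Adar2KO was -0.55 for the Nalcn circle on Illumina, -0.45 for the Nalcn host, -0.24 for Unc79 and 0.11 for Unc80; Adar1-2KO over wild type was -0.044, -0.13 and 0.053, and Unc80 in Adar2KO over wild type -0.054. With no filter, Nalcn in Adar1-2KO over Adar2KO was -0.0031 on Illumina and Unc80 -0.019 on ONT. With only circles listed in every library, an alternative chosen after seeing the data, Nalcn and Unc80 were -0.017 and 0.097 over Adar2KO and Unc80 0.23 over wild type; with library sizes from mapped reads Unc80 was 0.01 and 0.30, and the Illumina Nalcn circle was 0.79 in Adar1-2KO and 0.56 in Adar2KO over wild type (adjusted p = 0.681 and 1). Leaving out a library gave, for Adar1-2KO over Adar2KO, -0.18 to 0.40 for the Illumina Nalcn circle, -0.12 to 0.16 for the Nalcn host, and -0.076 to 0.19 for Unc79 on Illumina, and -0.0076 to 0.14 for Unc79 and -0.11 to 0.18 for Unc80 on ONT. It gave -0.0049 to 0.27 for Illumina Nalcn in Adar2KO over wild type, -0.17 to 0.036 for Illumina Unc80 and -0.63 to 0.098 for ONT Unc80 in Adar1-2KO over wild type, and -0.65 to 0.070 for ONT Unc80 in Adar2KO over wild type. Circular share calls ran from 0 to 1 in both comparisons with Adar2KO, the 1 without Adar1-2KO replicate 3. The cause of these changes was not tested.

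Replicate numbers did not pair the samples: deviations of same-numbered libraries correlated at -0.012 to 0.013, and 3 of 9 libraries correlated best with their own number. With the replicate block, the ONT Nalcn circle was 2.58 ± 0.25 (edgeR, adjusted p = 0.00421) in Adar1-2KO over Adar2KO, and no call changed.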
